A study of Mus musculus with 10 samples.

Results

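Hox genes encode homeodomain transcription factors that give cells along the body axis their position. The genes of interest here were all genes of the platform's probe annotation named Hoxa, Hoxb, Hoxc or Hoxd with a number, on probe sets that name 1 symbol; where a gene had several, the probe set of highest mean signal was taken. This gave 33 Hox genes among 18193 genes, 9 in the Hoxa cluster on chromosome 6, 9 in Hoxb on chromosome 11, 7 in Hoxc on chromosome 15 and 8 in Hoxd on chromosome 2. They are named by 48 probe sets, and 11 of the 33 have more than 1. Hox genes without such a probe set are not analysed here.

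The samples are total RNA of lower incisor dental mesenchyme from wild-type C57BL/6J mice at postnatal day 60, on 10 oligonucleotide arrays. The inferior alveolar nerve, which gives the lower teeth their sensory fibres, had been cut out on one side 2 weeks earlier. The 5 arrays of that side are called denervated and the 5 of the other side contralateral. Samples of equal number on the 2 sides varied together; the differences, errors and p-values below come from a fit without the pairing unless the block is named. A sham-operated group was not part of the samples used here, so nerve loss and surgery cannot be told apart, and the labels leave the sex of the mice undetermined. The labels do not say that each sample came from its own mouse, so p-values measure the spread between these samples.

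Hox genes lie in 4 clusters, and genes with the same number in different clusters are paralogues. Their order along the chromosome follows the order of the body regions that use them, from the hindbrain and pharyngeal arches for low numbers to the trunk, limbs and tail for high numbers. The jaws form from neural crest of the first pharyngeal arch, which is known in mouse embryos as a Hox-negative region; Hoxa2 specifies the neighbouring second arch. The tooth mesenchyme of the lower incisor comes from that jaw crest, whose own patterning relies on other homeobox genes, such as the Dlx and Msx families. The question here was which Hox transcripts can be seen above background in the adult incisor, and whether any differed between the denervated and the contralateral side.

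The arrays had medians of 1.48 to 1.54 on the log2 scale, and 2 denervated arrays stood apart in marker genes. The summed linear signal of 12 dental epithelium markers was 3848 on denervated array 3, and between 20904 and 23290 on the other denervated and between 20969 and 23904 on the contralateral arrays. That of 10 Schwann cell markers was 259 on denervated array 2, and between 77 and 109 on the other denervated and between 62 and 81 on the contralateral arrays. All 14 macrophage markers had a higher mean on the denervated side, and 0 of them passed the test between the sides described below. Their sums were 2414 and 2544 on denervated arrays 2 and 3, 1450 to 1577 on the other denervated and 1207 to 1408 on contralateral arrays. The summed signal of 7 odontoblast markers was 13393 on denervated array 2. It was 17159 to 20596 on the other denervated and 19023 to 20241 on contralateral arrays. Of the 7, 6 had a lower and 1 a higher mean on the denervated side, and 0 passed the test. Odontoblast markers, which define the labelled tissue, were high, with Dspp, a dentin matrix gene, at 12.07 ± 0.14 in denervated and 12.25 ± 0.08 in contralateral incisors (SD, n = 5 each). Markers of the enamel epithelium were high as well, which the label of dental mesenchyme does not cover: 12 of 12 had a mean above 4. Ambn, an enamel matrix gene, had 9.61 on denervated array 3 and 12.91 to 13.09 on the other denervated arrays, against 12.96 to 13.07 on contralateral arrays. The part of epithelial RNA in the values below was not tested. Skeletal muscle markers were low, with 3 of 10 above the background line explained next and no mean above 2.05.

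Of the 33 Hox genes, 31 had means within the range of genes that a tooth should not use, and Hoxa5 and Hoxd8 lay slightly higher. The values are log2 intensities, and the deposited table has no detection calls. A background line was therefore set at 1.31, the 95th percentile of the means over the 10 arrays of 73 chemosensory receptor genes, which serve olfactory, vomeronasal and taste cells. Weak signals on such arrays are known to understate changes, since unspecific binding adds to them. The means of the chemosensory genes lay between 0.09 and 1.82, with a median of 0.68. By construction 4 of the 73 (5.48%) lay above the line. The Hox genes had means between 0.33 and 2.14 with a median of 0.87, and 2 of 33 (6.06%) lay above the line. Over all genes 68.6% did, and 42.9% of 147 homeobox genes outside the Hox clusters. No Hox gene had a mean above 4, a level that 43.5% of all genes passed. Each probe set binds with its own strength, so the line is a guide to unspecific signal on average and not a detection call for a single gene. The 3 probe sets for a bacterial tryptophan gene had values between 0.42 and 1.04 on these arrays.

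**Figure D1:**
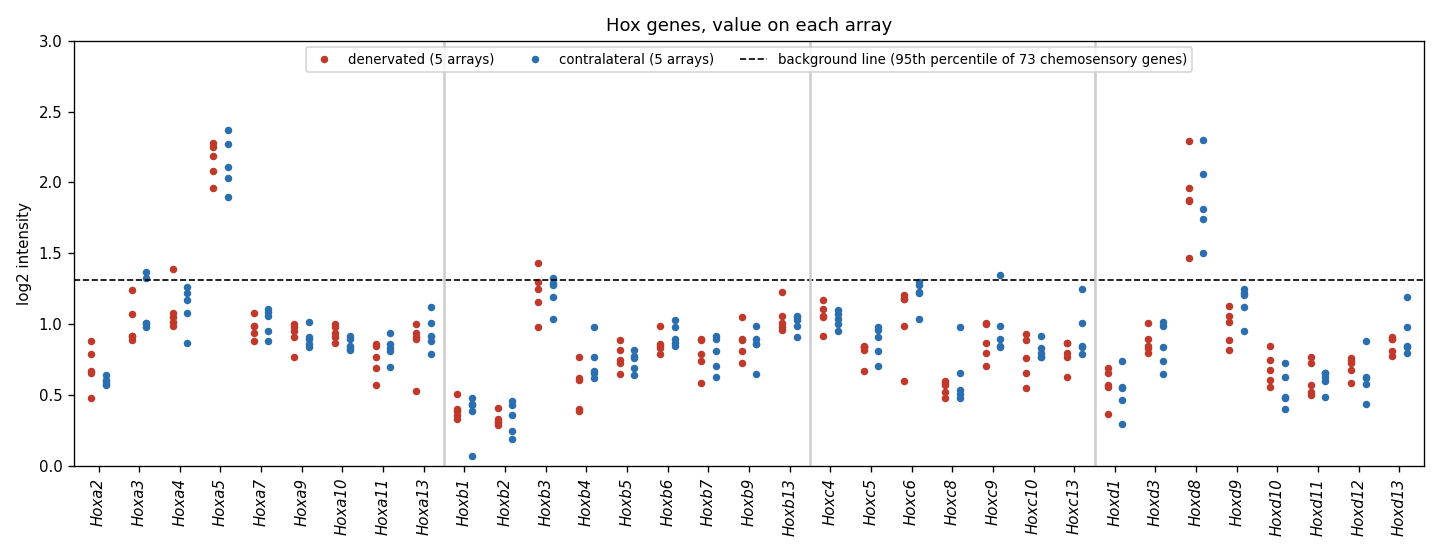
Log2 intensity (y axis) of each of the 33 Hox genes (x axis, in cluster order) on every array, 1 point per array, with the 5 denervated arrays left of the 5 contralateral arrays within each gene. Hoxa5 and Hoxd8 lie above the dashed background line of 1.31 on all 10 arrays, the groups overlap for every gene, and 27 genes are at or below the line throughout.

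Hoxa5, a gene of lung, trachea and neck patterning, had the higher mean of the pair, 2.14. It had 2.28, 1.96, 2.19, 2.08 and 2.25 on denervated arrays 1 to 5, against 1.90, 2.03, 2.27, 2.37 and 2.11 on contralateral arrays 1 to 5. All 10 values were above the line and the groups overlapped across most of their range. The means were 2.15 ± 0.13 in denervated and 2.13 ± 0.19 in contralateral incisors (SD, n = 5 each), a difference of 0.02 ± 0.10 (SE). Limma's adjusted p over all genes was 0.981, and the 95% confidence interval ran from -0.21 to 0.24. The probe set behind these values is of the x type, a class that the array maker marks as able to bind other transcripts as well. The other probe set of Hoxa5 had a mean of 0.96, with values between 0.83 and 1.17, and was above the line on 0 of 10 arrays. The Hoxa5 probe sets thus differ in whether the gene stands above background.

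Hoxd8, which acts in the patterning of the trunk, had a mean of 1.89. Its values were 2.29, 1.88, 1.87, 1.96 and 1.47 on denervated arrays 1 to 5, against 2.30, 1.5, 1.74, 1.81 and 2.06 on contralateral arrays 1 to 5. The highest and lowest values of each side were almost the same, so the groups overlapped almost completely. The means were 1.89 ± 0.29 in denervated and 1.88 ± 0.31 in contralateral incisors (SD, n = 5 each). The difference was 0.01 ± 0.17 (SE), with a 95% confidence interval from -0.36 to 0.38 and limma's adjusted p of 0.993. A second probe set had a mean of 1.36, just above the line, and passed it on 5 of 10 arrays. Its own difference, -0.17, had the opposite direction, with means of 1.27 in denervated and 1.44 in contralateral incisors. Both Hoxd8 probe sets thus had means above the line, by a small margin for the second.

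Hoxb3, a gene of the hindbrain and posterior pharyngeal arches, was the highest of the 31 genes below the line, with a mean of 1.22. It had 1.30, 1.16, 1.43, 1.25 and 0.98 on denervated arrays 1 to 5, against 1.19, 1.04, 1.33, 1.28 and 1.29 on contralateral arrays 1 to 5. It passed the line on 2 arrays, denervated 3 and contralateral 3. Besides Hoxb3, Hoxa3 passed it on 2 arrays and Hoxa4 and Hoxc9 on 1 array each. The other 27 genes passed it on 0 of 10 arrays.

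Genes with several probe sets allow a check of the choice of probe set. Of all 48 Hox probe sets, 3 had a mean above the line, the Hoxa5 probe set and both of Hoxd8. Hoxa3 has 4 probe sets, with means of 1.07, 0.96, 0.86 and 0.45, and Hoxc6 has 3, with 1.12, 0.75 and 0.71. The second probe set of Hoxb3 had 0.87. The Hoxa5 probe sets, with 2.14 and 0.96, were the farthest apart.

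Sequences before the annotated starts of Hoxa5 and Hoxd8 are shown because these genes lay above the line, that of Hoxa2 because it is the Hox gene of the arch next to the jaw arch, and that of Msx1 as a homeobox gene with a high signal in this tissue. Each is the 250 bases before the start, 5′ to 3′ on the gene's strand, from RefSeq on GRCm38.p6, with the CpG dinucleotides in capitals. CpG-dense starts are where Polycomb complexes are known to hold Hox genes silent.
Hoxa5, chr6:52204588-52204837, minus strand: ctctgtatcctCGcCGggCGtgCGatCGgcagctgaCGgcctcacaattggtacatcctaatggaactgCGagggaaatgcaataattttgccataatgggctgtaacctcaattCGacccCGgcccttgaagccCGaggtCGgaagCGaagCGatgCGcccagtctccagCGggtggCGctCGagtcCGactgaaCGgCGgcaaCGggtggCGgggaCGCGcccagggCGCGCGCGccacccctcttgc
Hoxd8, chr2:74704365-74704614, plus strand: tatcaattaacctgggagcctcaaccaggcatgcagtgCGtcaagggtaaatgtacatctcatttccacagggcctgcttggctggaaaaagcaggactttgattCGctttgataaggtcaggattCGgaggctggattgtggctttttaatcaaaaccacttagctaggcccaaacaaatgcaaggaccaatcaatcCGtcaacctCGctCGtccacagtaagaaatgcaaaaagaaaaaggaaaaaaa
Hoxa2, chr6:52164832-52165081, minus strand: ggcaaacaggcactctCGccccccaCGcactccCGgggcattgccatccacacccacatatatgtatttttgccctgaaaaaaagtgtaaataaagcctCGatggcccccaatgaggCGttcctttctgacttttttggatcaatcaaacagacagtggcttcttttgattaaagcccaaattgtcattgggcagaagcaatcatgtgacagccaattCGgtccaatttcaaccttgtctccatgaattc
Msx1, chr5:37824586-37824835, minus strand: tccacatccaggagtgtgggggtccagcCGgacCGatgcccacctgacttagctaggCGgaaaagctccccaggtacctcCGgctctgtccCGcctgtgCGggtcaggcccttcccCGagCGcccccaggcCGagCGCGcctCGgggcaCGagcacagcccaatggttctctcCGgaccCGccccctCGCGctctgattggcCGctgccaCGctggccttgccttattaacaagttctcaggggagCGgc
The Hoxa5 stretch holds 28 CpG dinucleotides, that of Hoxd8 6, that of Hoxa2 6 and that of Msx1 20. Stretches were found for 19 of the 33 Hox genes, 21 stretches in all, with a median of 13 CpG and a range from 2 to 35. The median was 18.5 over 14 stretches of 12 jaw and tooth homeobox genes and 1 over 1301 stretches of 1296 chemosensory receptor genes. It was 6 over 32841 stretches of all genes. Signals were measured for 20 jaw and tooth and 73 chemosensory genes, so stretches and signals cover different sets of genes. By median CpG count the Hox stretches lay nearer the jaw homeobox genes than the chemosensory genes. The Hox stretch with the most CpG, that of Hoxa13, belongs to a gene with a mean signal of 0.90, below the line. The arrays measured RNA and no chromatin mark, so a link between CpG content or Polycomb and these signals was not tested.

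Genes below the line were found in all 4 clusters and at all positions in them. Among the 10 genes of paralogue groups 1 to 4, which act in the hindbrain and pharyngeal arches, 0 lay above the line and the highest mean was 1.22. Hoxa2 had 0.88, 0.48, 0.79, 0.67 and 0.66 on denervated arrays 1 to 5, against 0.57, 0.61, 0.58, 0.64 and 0.60 on contralateral arrays 1 to 5. Its mean of 0.65 was within the range of the chemosensory genes, and its denervated values lay on both sides of the contralateral ones. Hoxb1, which specifies a hindbrain segment that makes facial motor neurons, and Hoxb2, another hindbrain gene, had the lowest means of the family, 0.38 and 0.33. Hoxd1 had 0.55, Hoxb4 0.65 and Hoxd3, a gene of the upper neck skeleton, 0.86.

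Hoxa3, needed for thymus and parathyroid, had 0.92, 0.89, 1.24, 1.07 and 0.92 on denervated arrays 1 to 5, against 1.01, 1.01, 1.37, 0.98 and 1.33 on contralateral arrays 1 to 5. Hoxa4, which acts in the neck skeleton, had 1.08, 1.05, 1.39, 0.99 and 1.02 on denervated arrays 1 to 5, against 1.08, 0.87, 1.26, 1.22 and 1.17 on contralateral arrays 1 to 5. Array 3 of either side gave the highest value of its side for both genes, and the groups overlapped. The remaining gene of these groups, Hoxc4, had a mean of 1.05.

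In paralogue groups 5 to 8, genes of the neck and thorax, 2 of 9 lay above the line, the Hoxa5 and Hoxd8 described above. The others ran from Hoxc8, a gene of the thoracic spine, at 0.59 to Hoxc6, a gene of the brachial and thoracic region, at 1.12. Hoxc6 had 0.60, 1.21, 1.18, 1.18 and 0.99 on denervated arrays 1 to 5, against 1.28, 1.22, 1.23, 1.04 and 1.30 on contralateral arrays 1 to 5. Denervated array 1 was the lowest and the other values of the groups overlapped. Hoxb5, Hoxb7, Hoxc5, Hoxb6 and Hoxa7 lay between, at 0.75, 0.79, 0.84, 0.90 and 1.00.

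In groups 9 to 13, genes of the lumbar region, limbs, tail and urogenital tract, 0 of 14 lay above the line and the highest mean was 1.07, that of Hoxd9. Hoxa13 and Hoxd13, which pattern the digits, had 0.90 each, and Hoxc13, a gene of hair and nails, 0.87. Hoxa9, which blood progenitors use, had 0.91, and Hoxb13, a prostate and tail gene, 1.03. Hoxc9, a gene of the thoracic spinal cord, had 0.71, 0.80, 0.87, 1.01 and 1.00 on denervated arrays 1 to 5, against 0.84, 0.99, 0.90, 0.85 and 1.35 on contralateral arrays 1 to 5. Its single value above the line was that of contralateral array 5, and the groups overlapped. Hoxd11, Hoxd10 and Hoxd12, which act in the limb, were lower, at 0.61, 0.62 and 0.67. The limb and kidney gene Hoxa11 and the lumbar gene Hoxc10 had 0.79 each, Hoxb9, a gene of the ribs, 0.86 and Hoxa10, a gene of the uterus and lumbar spine, 0.90.

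**Figure D2:**
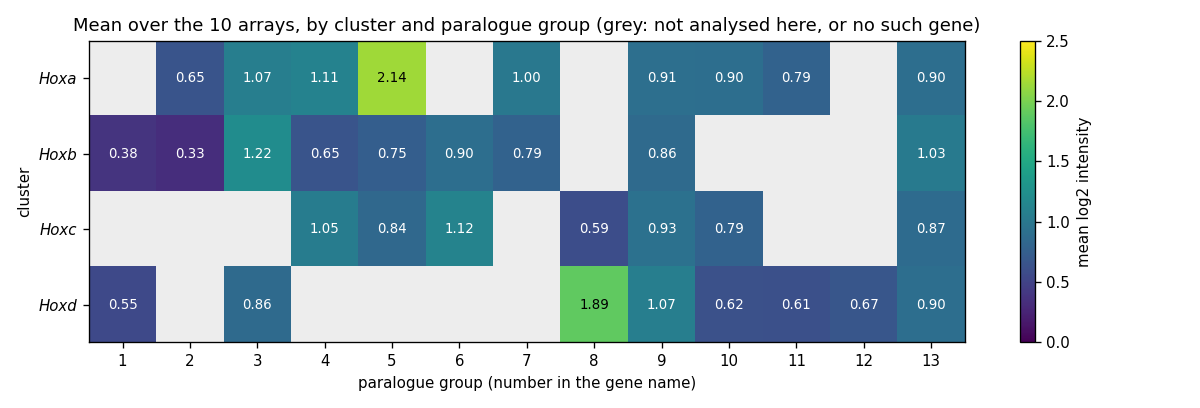
Mean log2 intensity over the 10 arrays for each Hox gene, with the 4 clusters as rows and the paralogue group, the number in the gene name, as columns. The colour scale runs from 0 to 2.5; Hoxa5 at 2.14 and Hoxd8 at 1.89 are the highest cells, and no cluster or end of a cluster is high as a whole.

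Other transcripts of the clusters were as low. Of 3 probe sets that name a pair of Hox genes, the one for Hoxb8 and Hoxb7 had a mean of 0.36 and the 2 for Hoxd4 and Hoxd3 had 0.82 and 0.56, each above the line on 0 of 10 arrays. The noncoding genes Hoxa11os and Hoxd3os1, transcribed opposite to Hox genes, had means of 1.06 and 0.86, and Hoxb5os had 1.26. These 3 were the measured members of a list of 20 noncoding genes of the clusters. Of them 0 of 3 lay above the line, where 68.6% of all genes did. Between the sides 0 of 3 passed limma's test and 0 had an unadjusted p under 0.05, where 6.21% of all genes did. The differences were -0.11 for Hoxa11os, -0.06 for Hoxd3os1 and 0.05 for Hoxb5os. No tissue with known Hox expression was on these arrays, so whether each probe set can report its transcript was not tested. A Hox transcript carried by few cells would be diluted in this bulk RNA, in which fewer cells of a type and less RNA per cell cannot be told apart.

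The spread between arrays was small for the family. The median SD over the 10 arrays was 0.12 for the Hox genes, with 0.28 as the highest, against 0.11 for the chemosensory genes and 0.17 for all genes. The median Hox signal was 0.81, 0.80, 0.84, 0.90 and 0.87 on denervated arrays 1 to 5, against 0.90, 0.85, 0.90, 0.86 and 0.90 on contralateral arrays 1 to 5. The number of Hox genes above the line was 2 on 7 arrays and 4 on denervated array 3 and contralateral arrays 3 and 5. The medians of denervated arrays 2 and 3, which stood apart in marker genes, were the lowest and the third lowest of the 10.

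No Hox gene passed the test between the sides. By limma over 18193 genes, 0 of 33 Hox genes had an adjusted p under 0.05, and 0% of all genes did. At an unadjusted p under 0.05 there were 0 of 33 Hox genes, against 6.21% of all genes, of which 4.1% were higher and 2.11% lower on the denervated side. The smallest Hox value was 0.0721. The groups overlapped for all 33 Hox genes, while 0.951% of all genes had groups that did not overlap, 0.528% higher and 0.423% lower on the denervated side. In 0 of 33 did all 5 numbered pairs show the same direction, against 10.4% of all genes, 6.58% higher and 3.8% lower. With the pair as a block 0 of 33 passed, and 0 had an unadjusted p under 0.05, where 9.92% of all genes did.

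Of the 33 differences 15 were above and 18 below 0, with a median of -0.01 beside 0.02 for all genes. Without denervated arrays 2 and 3, which stood apart in marker genes, the median was 0.01 and 0 of 33 passed by limma. In that setting 2 of 33 had an unadjusted p under 0.05, beside 856 of all 18193 genes. Its lowest differences were -0.29 for Hoxc6 and -0.27 for Hoxb4, beside -0.18 and -0.19 with all 10 arrays. Its highest was 0.14 for Hoxa2, beside 0.10 with all 10. With all 10 arrays the median by cluster was -0.02 for Hoxa, 0.00 for Hoxb, -0.08 for Hoxc and 0.02 for Hoxd. In Hoxc 1 difference was above and 6 were below 0, none past the test, and in Hoxd 6 were above and 2 below.

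The differences ran from -0.19 to 0.14, with standard errors between 0.06 and 0.17, and the 95% confidence intervals of all 33 lay between -0.44 and 0.38. The intervals are on the deposited log2 scale. The smallest p belonged to Hoxd9, a gene of the posterior trunk and limbs. It had 1.13, 1.06, 0.82, 0.89 and 1.02 on denervated arrays 1 to 5, against 1.12, 0.95, 1.21, 1.22 and 1.25 on contralateral arrays 1 to 5. Every value was below the line, the groups overlapped, and limma's adjusted p for the difference of -0.17 ± 0.08 (SE) was 0.790. Hoxb4, known for its effect on blood stem cells, had the lowest difference, -0.19 ± 0.10, and Hoxd10, a gene of hindlimb motor neurons, the highest, 0.14 ± 0.08 (SE). Limma's adjusted p was 0.791 for Hoxb4 and 0.802 for Hoxd10, and all values of both were below the line. Hoxd9, Hoxb4 and Hoxd10 were chosen for these paragraphs after their values were seen.

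**Figure D3:**
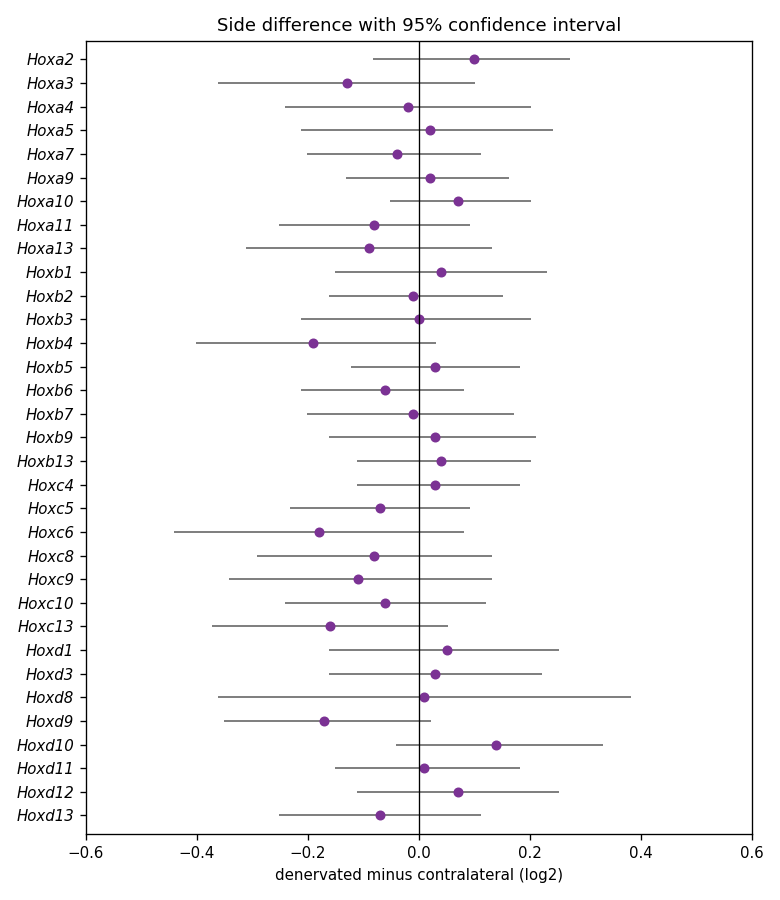
Denervated minus contralateral difference (log2) of each Hox gene as a point with its 95% confidence interval from limma as a line, genes in cluster order from the top. All 33 intervals include 0, and the differences run from -0.19 to 0.14.

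Homeobox genes outside the clusters set the context. Of 20 measured homeobox genes with known roles in the jaw and teeth, 18 lay above the line, 13 had a mean above 4, and the median was 6.64. Over all genes 68.6% lay above the line and 43.5% had a mean above 4. Msx1, needed for tooth development, had 9.59 ± 0.28 in denervated and 9.51 ± 0.17 in contralateral incisors, and Msx2 had 8.34 ± 0.11 in denervated and 8.25 ± 0.11 in contralateral incisors (SD, n = 5 each). All 6 Dlx genes, which set upper and lower jaw identity, had means between 4.44 for Dlx6 and 8.35 for Dlx2. The craniofacial genes Prrx1, Prrx2 and Alx1 had 7.11, 6.47 and 6.56, and the oral mesenchyme gene Lhx8 7.08. The islet factor gene Isl1, which in the mouse jaw also marks incisor epithelium, had 7.15; its lowest value, 5.9, was on denervated array 3, where the epithelial markers were low. The remaining genes above the line were low, with Lhx6 and Pitx1 at 2.72, Shox2 at 2.75, Barx2 at 2.61 and Gsc at 1.92. Barx1, a molar gene, and Alx4 lay below it, at 0.71 each. Signal values of different probe sets are not amounts of transcript, and these means are read against the line only.

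Of the 20, 0 passed limma's test between the sides and 2 had an unadjusted p under 0.05, both higher on the denervated side. Over all genes 4.1% were higher and 2.11% lower at that level. The smallest p values were those of Alx1, with 6.78 ± 0.21 in denervated and 6.35 ± 0.13 in contralateral incisors, and Prrx2, with 6.75 ± 0.33 in denervated and 6.19 ± 0.38 in contralateral incisors (SD, n = 5 each). Both had an adjusted p of 0.790 by limma. Alx1 was higher in 5 of 5 numbered pairs, as 6.58% of all genes were, and Prrx2 in 4.

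**Figure D4:**
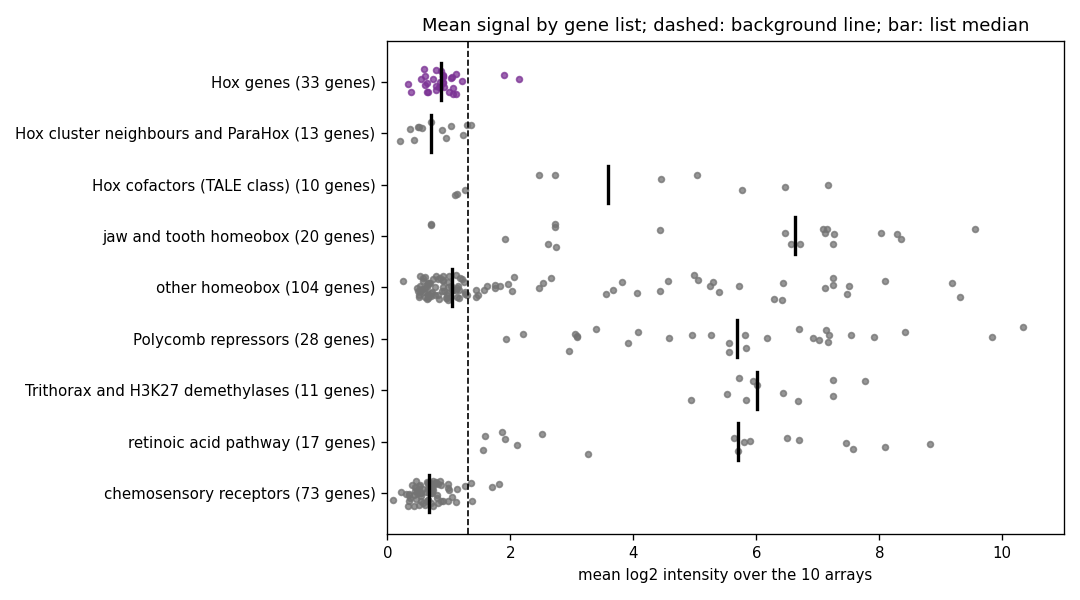
Mean log2 intensity over the 10 arrays (x axis) of each gene, by list; points are genes, bars list medians, and the dashed line is the background line of 1.31. The 33 Hox genes, the cluster neighbours and the chemosensory receptor genes gather at the low end, while the jaw and tooth homeobox genes have a median of 6.64 and the Polycomb genes one of 5.69.

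The nearest relatives of the Hox genes were also low. A list of 13 genes held the Evx genes at the ends of the clusters and the ParaHox genes of the Cdx, Gsx and Pdx families. It also held the related Mnx, Gbx and En genes. Over all genes 68.6% lay above the line, and 1 of these 13 did. That was Pdx1, a pancreas gene, at 1.36, and Gbx2, a gene of the anterior hindbrain, was just below at 1.29. Evx2, next to Hoxd13, had 0.20. Of these genes 0 passed limma's test between the sides and 0 had an unadjusted p under 0.05, where 6.21% of all genes did. Mnx1 and Cdx4 had the smallest p, with differences of -0.11 and 0.12 and adjusted p of 0.796 and 0.798 by limma. Over all genes 68.6% lay above the line and 43.5% had a mean above 4. Of 104 further homeobox genes, 37 lay above the line and 20 had a mean above 4, among a range from 0.25 to 9.31. Here 0 passed limma's test, and 39 differences were above and 65 below 0. At an unadjusted p under 0.05 there were 2 higher and 2 lower genes, against 4.1% higher and 2.11% lower of all genes. The tendon gene Mkx differed by 0.43 ± 0.11 and Six4, a gene of muscle and sensory organs, by 0.29 ± 0.11 (SE), both higher in 5 of 5 numbered pairs. The lower genes were Lhx1 at -0.15 ± 0.06 and Prox1 at -0.32 ± 0.13 (SE), both lower in 5 of 5 and with means below the line. All of these had limma's adjusted p at 0.790. In this list 3 genes were higher and 9 lower in 5 of 5, against 6.58% and 3.8% of all genes.

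Genes for cofactors of Hox proteins lay above the line about as often as all genes did. The TALE homeodomain proteins, which include Pbx and Meis, bind DNA together with Hox proteins and also with other partners. Of 10 measured genes 7 (70.0%) lay above the line, near the 68.6% of all genes. Pbx3 had 7.17 ± 0.23 in denervated and 7.17 ± 0.13 in contralateral incisors, and Pbx2 had 6.53 ± 0.15 in denervated and 6.40 ± 0.09 in contralateral incisors (SD, n = 5 each). Tgif1, Tgif2 and Pknox1 had means of 5.03, 5.76 and 4.45, and Meis1 and Meis3 2.73 and 2.47. Pbx4, Meis2 and Pknox2 lay below the line, at 1.14, 1.10 and 1.26. Of the 10, 0 passed limma's test between the sides and 0 had an unadjusted p under 0.05, where 6.21% of all genes did. Pbx2 at 0.14 ± 0.08 and Meis3 at 0.21 ± 0.13 (SE) had the smallest p, with limma's adjusted p at 0.804 for both.

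The measured genes for proteins that silence or activate Hox clusters all gave signals above the line, where 68.6% of all genes did. Polycomb complexes, which keep Hox genes off where they are not needed, were represented by 28 genes with a median of 5.69, and 28 of 28 lay above the line. The methyltransferase gene Ezh2 had 5.91 ± 0.10 in denervated and 5.75 ± 0.20 in contralateral incisors (SD, n = 5 each). Its partners Eed and Suz12 had means of 7.02 and 6.69, the ubiquitin ligase gene Rnf2 7.19 and Bmi1 7.54. Trithorax group genes and histone H3 lysine demethylase genes, which oppose Polycomb, lay above the line in 11 of 11 cases. Kmt2a, known as a keeper of Hox expression, had a mean of 5.52, and Kdm6a and Kdm6b, which remove the Polycomb mark, 6.44 and 7.25. Between the sides 0 of the 28 and 0 of the 11 passed limma's test. At an unadjusted p under 0.05 there was 1 Polycomb gene, Phf19, against 6.21% of all genes. The smallest p values were those of Phf19, a Polycomb accessory gene, at -0.28 ± 0.11, Ezh2 at 0.16 ± 0.10, Kdm6b at -0.21 ± 0.11 and Dpy30 at 0.16 ± 0.08 (SE), with adjusted p of 0.790, 0.804, 0.791 and 0.791.

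Retinoic acid is known as an inducer of Hox genes in the embryo. Of 17 measured genes of its synthesis, breakdown and reception, 17 lay above the line, where 68.6% of all genes did. A mean above 4 was reached by 10 of the 17, and by 43.5% of all genes. The lowest means were 1.56 for Rbp4, above the line on 6 of 10 arrays, and 1.59 for Rxrg. The synthesis gene Aldh1a3 had a mean of 8.83, the breakdown gene Cyp26a1 8.09 and the receptor genes Rarb and Rarg 6.5 and 5.70. Between the sides 0 of 17 passed limma's test and 3 had an unadjusted p under 0.05, all higher on the denervated side, where 4.1% of all genes were higher at that level. The median difference was 0.23, with 15 above and 2 below 0, beside 10158 above and 8035 below among all 18193 genes, and it was 0.11 without denervated arrays 2 and 3. Crabp1, a retinoic acid binding protein gene, had 7.83 ± 0.36 in denervated and 7.33 ± 0.33 in contralateral incisors and was higher in 3 of 5 numbered pairs (SD, n = 5 each). Rarg had 5.79 ± 0.12 in denervated and 5.60 ± 0.08 in contralateral incisors and was higher in 5 of 5. Both had an adjusted p of 0.790 by limma. With the pair as a block in limma, 0 of 17 passed and 4 had an unadjusted p under 0.05, where 9.92% of all genes did. Those 4 were Dhrs3, Crabp2, Rdh10 and Aldh1a3, all higher on the denervated side. Crabp1 and Rarg were not among them, with unadjusted p of 0.0543 and 0.0585 by limma with the block. Aldh1a2, another synthesis gene, had 4.93 and 4.92 on denervated arrays 2 and 3, 1.63 to 1.86 on the other denervated and 1.41 to 2.74 on contralateral arrays. Several marker lists were also higher on the denervated side. Of 12 pericyte and smooth muscle markers 11 had a higher mean there. Their summed signal was 3593 and 3275 on denervated arrays 2 and 3, 2130 to 2377 on the other denervated and 1897 to 2141 on contralateral arrays. Their median difference was 0.34, and 0.12 without denervated arrays 2 and 3. Of 13 endothelial markers 13 had a higher mean on the denervated side, with a median difference of 0.15, and -0.08 without those arrays. For the 14 macrophage markers the median difference was 0.49, and 0.23 without those arrays. The part of these markers in the retinoic acid values was not tested.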

How the data were processed

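The deposited values are log2 intensities of probe sets, with a column for each array. The authors normalized them with RMA, per the submitters' processing notes, with no version given; array medians of 1.48 to 1.54 and values below 0 are lower than RMA usually gives, and the variant used is not given in the sources used here. The values were used as deposited. Of 45101 probe sets 64 controls were left out; 34945 name 1 symbol, 932 several and 9160 none. For each of 18193 genes the probe set of highest mean signal was taken, a choice that favours genes with several probe sets: 22 of 33 Hox and 67 of 73 chemosensory genes have 1.

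Sides were compared by limma 3.58.1 (lmFit, eBayes) in R 4.3.3 with Benjamini-Hochberg adjustment over all genes and a threshold of 0.05; differences are denervated minus contralateral, without the pairing except where the block is named. The fit was tested on simulated arrays without pairing, with changes of known size set only in genes with a mean above 4. It cannot show how well changes would be found in signals as low as those of the Hox genes. Samples of equal number were taken as pairs, from the data, since the labels give only the number: deviations from group means correlated at 0.18 to 0.57 in the 5 same-numbered pairs and at -0.41 to 0.22 in the 20 others, and sex-linked transcripts matched in 5 of 5. Alternatives were the pair as a block, quantile normalization, the mean of probe sets, a trended prior, array weights, a floor of 2, a filter at the line, other lines and leaving out arrays. The members and lists were chosen with earlier results of these data known. Genes were named by rule from the fit with all 10 arrays. The rule took Hox genes above the line, next to it, with an unadjusted p under 0.05 or with groups that do not overlap. It also took the 2 genes of smallest p in each context list (not the cell type marker lists). Others are given for their known roles or as examples of a list.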

Additional observations from a re-analysis of the deposited data

Results flagged for a closer look

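In 66 groups of 5 values (33 Hox genes on both sides), 5 single arrays lay far from the other 4 of their group by Dixon's test, which chance gives in about 1 of 20 groups. Hoxa4 had 1.39 on denervated array 3, where the next value was 1.08; it is the only one of the 5 above the background line. Hoxa13 had 0.53 on denervated array 2, where the next value was 0.90. Hoxb1 had 0.07 on contralateral array 5, with 0.39 next to it. Hoxb2 had 0.41 on denervated array 2, with 0.33 next to it, and Hoxc5 had 0.67 on denervated array 1, with 0.82 next to it. The values of Hoxa13, Hoxb1, Hoxb2 and Hoxc5 are all below the line, and a cause was not tested for any of them.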

How the results depend on the processing

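Under the 17 alternatives run for the calls, 0 genes and 0 Hox genes differed between the sides, with the replicate block (the pair as a term) among them; with the block the smallest adjusted p by limma was 0.234 over all genes and 0.521 over the Hox genes. The block changed no call. At an unadjusted p under 0.05 by limma there were 2 Hox genes with array weights, beside 1284 of all 18193 genes. Without denervated arrays 2 and 3 there were 2, beside 856 of all 18193 genes. In the other settings there was at most 1 Hox gene. The count of 2 Hox genes above the line stayed at 2 with the 99th percentile (line at 1.74), with quantile normalization and without any single array; it was 0 with a fixed line of 4 and 6 for genes above the line on at least 1 array, as those settings are stricter and looser by construction. The median Hox difference ran from -0.03 (without contralateral array 2) to 0.01 when single arrays were left out. The uncalled differences of the named genes changed sign: Hoxa5 -0.04, Hoxd8 -0.03 and Hoxb3 0.01 with quantile normalization, Hoxd8 -0.08 and Hoxb3 0.00 with the mean of probe sets, Hoxb3 0.03 with array weights and Hoxd8 -0.01 with the floor of 2. Leaving out single arrays gave -0.04 to 0.07 for Hoxa5, -0.09 to 0.12 for Hoxd8 and -0.05 to 0.06 for Hoxb3. With the floor of 2 Hoxb3 is at the floor on every array and has no value. The number of arrays and the nearness of the signals to background limit what could be seen.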

Other observations

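Genes of the T-box family with known roles in limb and trunk mesenchyme were also near the background line. They belong to a list of 9 cartilage, limb and trunk genes, of which 5 lay above the line, where 68.6% of all genes did. Among those 5, Col2a1 had a mean of 2.88, Comp 1.98 and Acan 1.41. Tbx5, a forelimb gene, had 0.88 ± 0.08 in denervated and 1.00 ± 0.18 in contralateral incisors, and Tbx15 1.19 ± 0.14 in denervated and 1.28 ± 0.21 in contralateral incisors (SD, n = 5 each). Tbx18 had 1.05 ± 0.13 in denervated and 1.07 ± 0.13 in contralateral incisors. Tbx4, a hindlimb gene, had 1.38 ± 0.10 in denervated and 1.37 ± 0.14 in contralateral incisors, just above the line of 1.31. Sox9, a cartilage factor gene that neural crest cells also use, had 7.20 ± 0.08 in denervated and 7.01 ± 0.11 in contralateral incisors, with limma's adjusted p at 0.790. Matn1, a cartilage matrix gene below the line, had 0.80 ± 0.08 in denervated and 0.98 ± 0.09 in contralateral incisors, lower in 5 of 5 numbered pairs, with limma's adjusted p at 0.790. Sox9 was higher in 4 of 5. By limma 0 of the 9 genes of this list passed the adjusted threshold between the sides. Sox9 and Matn1 had an unadjusted p under 0.05, as 6.21% of all genes did.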
